A study of Mus musculus with 24 samples.

Results

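Transcripts of 8 Toll-like receptors (Tlr1, Tlr2, Tlr4, Tlr6, Tlr7, Tlr8, Tlr9 and Tlr13) and of the LPS co-receptors Cd14 and Ly96 were followed in mouse macrophages. The genes were taken by symbol, and all 10 were present as 1 gene each, among 22996 genes measured in bone marrow-derived macrophages (BMDMs) and 54380 in the macrophage line J774.1. With a minimum mean of 1 TPM (a transcript level corrected for transcript length and library size), all 10 could be tested in BMDMs, and all but Tlr8 (9 genes) in J774.1 cells.

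RNA sequencing covered 24 libraries in 8 groups of 3. BMDMs were grown in L929-conditioned medium from bone marrow of male C57BL6/N mice aged 6 to 12 weeks. They carried control, Ctbp1 or Ctbp2 siRNA, and each of these was given vehicle (PBS) or LPS at 100 ng/ml for 4 h. J774.1 is a line from a female BALB/c mouse; wildtype and Ctbp1/2 double-knockout cells were compared, both after the same LPS treatment, so that the line has no vehicle group. All BMDM groups had been transfected with an siRNA, and no untransfected cells were compared. How the knockout was made, and whether it is 1 clone, is not given in the sources used here. The question was how the corepressors Ctbp1 and Ctbp2 bear on inflammatory gene expression.

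Toll-like receptors are membrane proteins that bind microbial molecules and signal through the adaptors Myd88 and Ticam1 to NF-kB, MAP kinases and interferon regulatory factors. LPS is recognised by Tlr4 together with Ly96 (also called MD-2), which holds the lipid, and Cd14, which hands it over. Tlr2 pairs with Tlr1 or Tlr6 to recognise bacterial lipopeptides at the cell surface. Tlr7, Tlr8, Tlr9 and Tlr13 sit in endosomes and recognise nucleic acids: Tlr7 and Tlr8 RNA or its breakdown products, Tlr9 unmethylated CpG DNA, and Tlr13 bacterial ribosomal RNA. Macrophages carry most of these receptors and change their transcripts within hours of contact with LPS.

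In the libraries, the summed TPM of 8 macrophage markers was 10922 to 14600 in BMDMs (8 of 8 genes at or above 1 TPM in each group) and 1403 to 1637 in J774.1 cells, where Mertk and Mrc1 were at or near 0. Summed markers of other cells reached at most 1.75 TPM for B cells, 4.53 for T and NK cells, 3.01 for dendritic cells, 1.07 for mast cells and 7.59 for stromal cells in BMDMs, against 70.3 to 187 for neutrophils. That neutrophil sum was made up mainly of S100a8, S100a9 and Csf3r, genes that macrophages can also express. With LPS in control cells, 2 of the 8 macrophage markers were higher and 5 lower, where 18.6% of all genes tested were higher and 53.6% lower. After the median-of-ratios scaling described below, 3 were higher and 4 lower. In the same cells Csf3r went from 25.6 to 32.7 TPM with LPS, and the stromal marker Pdgfrb from 0.0657 to 6.25 TPM. The part of these markers in the LPS results was not tested. In bulk RNA, fewer cells of a type and less RNA per cell cannot be told apart. One control siRNA LPS library, replicate 4, deviated more from its group (0.233 root mean square on the log2 scale) than the other 15 BMDM libraries outside that group (0.183 to 0.207). The targeted genes were checked first. Ctbp1 averaged 138 TPM with control and 57.3 with Ctbp1 siRNA in vehicle, and 123 and 50.8 with LPS. Ctbp2 averaged 52.6 with control and 18.2 with Ctbp2 siRNA in vehicle, and 38.2 and 12.1 with LPS. In cells labelled double knockout, Ctbp1 was at 19.9 against 161 TPM, while Ctbp2 was at 63.1 against 78.2 TPM, or 80.7% of wildtype. Such a gene-level value cannot tell an intact Ctbp2 transcript from one that carries a deletion.

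Stretches upstream of some receptor genes that moved in opposite directions with LPS are shown first, as examples. RefSeq windows on GRCm38.p6 were matched for 6 of the 10 genes (8 windows, since Tlr1 and Tlr6 have 2 starts each). Each was searched on both strands, over 250 bases before the start, for a form of the NF-kB site (GGG, then any 5 bases, then CC), for GAGGAA (the core bound by the macrophage factor PU.1), for TGANTCA (AP-1) and for a form of the interferon-response element (GAAA, any 2 bases, GAAA). Capitals mark the matches, and each stretch stops where an annotated exon begins, so that exon bases are left out. For Tlr2, Tlr6 and Tlr13 only the first 91, 201 and 179 bases are therefore shown. Positions given below are counted from the RefSeq start and not from the end of the printed stretch. Coordinates are of GRCm38.p6 and are not joined to the deposited values, whose BMDM table names mm39. Tlr2 and Tlr6, higher with LPS, are followed by Tlr9 and Tlr13, lower with LPS.
Tlr2, chr3:83841768-83841858, minus strand: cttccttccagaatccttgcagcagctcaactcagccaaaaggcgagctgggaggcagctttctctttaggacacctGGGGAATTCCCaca
Tlr6, chr5:64960098-64960298, minus strand: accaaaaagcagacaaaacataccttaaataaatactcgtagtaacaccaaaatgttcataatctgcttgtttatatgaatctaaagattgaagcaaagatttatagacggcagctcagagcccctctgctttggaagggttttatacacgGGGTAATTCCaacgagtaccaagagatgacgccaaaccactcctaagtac
Tlr9, chr9:106222348-106222597, plus strand: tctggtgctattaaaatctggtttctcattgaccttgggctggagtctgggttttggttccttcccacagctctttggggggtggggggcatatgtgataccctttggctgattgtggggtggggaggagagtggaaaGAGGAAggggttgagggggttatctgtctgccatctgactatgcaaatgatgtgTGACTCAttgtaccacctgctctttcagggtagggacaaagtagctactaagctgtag
Tlr13, chrX:106143025-106143203, plus strand: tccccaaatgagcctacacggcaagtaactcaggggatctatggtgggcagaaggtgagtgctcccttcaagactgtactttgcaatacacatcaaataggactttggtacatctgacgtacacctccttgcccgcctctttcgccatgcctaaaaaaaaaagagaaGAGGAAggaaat

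The Tlr2 stretch held the NF-kB form at 173 to 163 bases before the start, where 2 overlapping matches, 1 of them also read on the opposite strand, make up the run in capitals. The Tlr6 stretch held the same form at 99 to 90 bases before its start. The bases just after the start of either Tlr6 window were not found in an annotated Tlr6 transcript, unlike those of Tlr2, Tlr9 and Tlr13. Positions counted from the Tlr6 starts are therefore less certain. Of all 32851 windows of this length, 45.8% held the NF-kB form, so its presence is common. The Tlr9 stretch held GAGGAA at 112 to 107 bases and TGACTCA at 58 to 52 bases before the start, and the Tlr13 stretch held GAGGAA at 83 to 78 bases. GAGGAA occurred in 23.3% and TGANTCA in 6.75% of all windows. One Tlr1 window and the Tlr8 window also held GAGGAA, and the other Tlr6 window held the interferon-response form, which 2.98% of all windows had. The NF-kB form was in neither window of Tlr1, which was also higher with LPS, nor in the other Tlr6 window. The matches thus do not divide the higher from the lower genes. A match of letters is a description and not a bound site.

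In resting BMDMs with control siRNA, Cd14 was the highest of the 10 and Tlr9 the lowest. Cd14 was at 270.3, 303 and 255 TPM in replicates 1, 3 and 4 and Tlr13, the endosomal receptor for ribosomal RNA, at 227, 227 and 234 TPM. Below these, the order of mean levels was Tlr8 (135), Tlr7 (113), Tlr4 (47.8), Ly96 (45.1), Tlr1 (37.8), Tlr2 (29.0), Tlr6 (22.3) and Tlr9 (12.6). Only Tlr4 and Ly96 were neighbours whose libraries overlapped. Among the 10 genes, the endosomal receptors other than Tlr9 thus stood above every surface receptor in these libraries. Tlr3, an endosomal receptor outside the 10, averaged 11.9 TPM in this group, below every surface receptor of the 10. With Ctbp2 siRNA in vehicle, the libraries of Cd14 (mean 268) and Tlr13 (mean 234) overlapped.

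After 4 h of LPS the order was changed. Cd14 stayed first at a mean of 1678 TPM, followed by Tlr2 at 264 and Tlr1 at 160.3 TPM. Tlr8 (109), Tlr7 (91.3) and Tlr13 (89.3) followed with overlapping libraries, then Tlr6 (45.3) and Ly96 (43.9), also overlapping, then Tlr4 (28.0) and Tlr9 (3.60). Of the 10 genes, 9 changed with LPS in control siRNA cells, 4 upward and 5 downward, and the vehicle and LPS libraries of each of the 9 did not overlap. For 2 of the 5, Tlr7 and Tlr8, the call was lost when the TPM were rescaled by median-of-ratios size factors, which set the typical gene of every library equal. The count is read against a background in which 72.2% of the 12146 genes tested were called, 18.6% higher and 53.6% lower. The same 4 genes were higher and the same 5 lower in Ctbp1 siRNA cells (background 70.5%, with 19.4% higher and 51.1% lower) and in Ctbp2 siRNA cells (73.9%, with 18.6% higher and 55.3% lower). These 3 comparisons share no libraries, but they come from the same fit and share its estimate of spread. Same-numbered libraries also shared a small part of their deviations across siRNAs, so the 3 are not fully independent. In control siRNA cells the median log2 fold change of the 10 genes was -0.17, against -0.29 over all genes tested. It was -0.02 against -0.26 with Ctbp1 siRNA and -0.08 against -0.32 with Ctbp2 siRNA. After median-of-ratios scaling the control values were 0.16 and 0.01, so the sign of this median depends on the scaling.

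**Figure D1:**
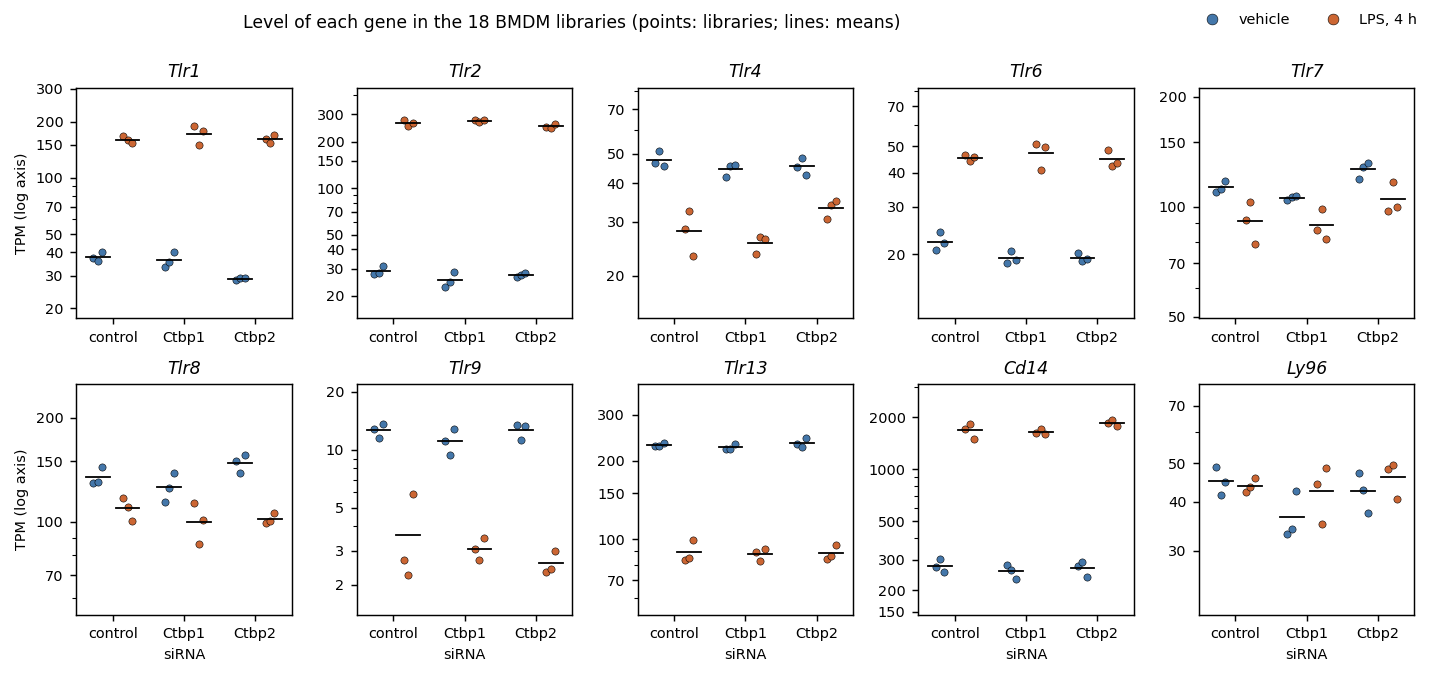
TPM on log axes of each of the 10 genes in the 18 BMDM libraries, by siRNA; points are libraries and lines are means of 3. Tlr1, Tlr2, Tlr6 and Cd14 lie higher after 4 h of LPS (orange) than in vehicle (blue) with each siRNA, Tlr4, Tlr7, Tlr8, Tlr9 and Tlr13 lie lower on this scale, and Ly96 overlaps. After median-of-ratios scaling Tlr7 and Tlr8 were not called with any siRNA, nor Tlr4 with Ctbp2 siRNA, and the direction turned for Tlr7 with each siRNA and for Tlr8 with control siRNA.

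The surface receptors for lipopeptides rose. Tlr2 was at 27.6, 28.4 and 31.1 TPM in vehicle and at 275, 253 and 264 TPM with LPS in the 3 control siRNA replicates. Over all siRNAs, the 9 vehicle libraries ranged from 23.0 to 31.1 (median 27.6) and the 9 LPS libraries from 245 to 278 (median 264). The lowest LPS library was thus far above the highest vehicle library. The rise was 9.09-fold in control, 10.8-fold in Ctbp1 and 9.18-fold in Ctbp2 siRNA cells (log2 fold change 3.14, 3.38 and 3.15, each with an SE of 0.06, and limma adjusted p = 2.84e-16 in control cells). In control cells only 1.21% of genes tested had a larger log2 fold change than Tlr2.

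Tlr1, which forms the receptor for triacylated lipopeptides with Tlr2, was at 37.5, 35.7 and 40.1 TPM in vehicle and at 168, 159 and 154 TPM with LPS. It rose 4.24-fold with control, 4.76-fold with Ctbp1 and 5.58-fold with Ctbp2 siRNA (log2 2.06, 2.22 and 2.44, SE 0.08; adjusted p = 9.18e-13 in control cells). Tlr6, the partner of Tlr2 for diacylated lipopeptides, was at 20.8, 24.1 and 22.0 TPM in vehicle and at 46.3, 43.9 and 45.5 TPM with LPS. No library of either treatment fell within the range of the other for either gene. Tlr6 rose by less, 2.03-fold with control siRNA (log2 0.99, SE 0.08, adjusted p = 1.05e-08), 2.43-fold with Ctbp1 and 2.30-fold with Ctbp2 siRNA. Tlr1 and Tlr6 lie next to each other on chromosome 5 and share sequence: 18.3% of the 31-base words of Tlr1 transcripts also occur in Tlr6, and 16.4% of those of Tlr6 in Tlr1. Reads from these stretches are assigned to one or the other by the quantification, so the split between both genes is uncertain there. No such word was shared by any other pair of the 10 genes.

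Within a library, the ratio of Tlr1 to Tlr6 was 1.41 to 2.10 over the 9 vehicle libraries (median 1.73) and 3.31 to 3.91 over the 9 LPS libraries (median 3.62). The ratio of Tlr2 to Tlr1 moved from 0.693 to 0.966 in vehicle to 1.47 to 1.79 with LPS. Tlr2 was thus below Tlr1 in every vehicle library and above it in every LPS library. A ratio of this kind does not depend on how libraries are scaled, and it shows unequal change, not which gene changed.

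The 3 genes of the LPS receptor did not move together. Cd14 was at 1709.6, 1825 and 1498 TPM after LPS in control siRNA cells, from 270.3, 303 and 255 TPM in vehicle, and it rose 6.08-fold (log2 2.60, SE 0.09, adjusted p = 1.37e-13). The rise was 6.36-fold with Ctbp1 and 6.90-fold with Ctbp2 siRNA. Tlr4, the signalling receptor, was at 46.7, 51.2 and 45.5 TPM in vehicle and at 28.4, 32.5 and 23.2 TPM with LPS. All 3 LPS libraries were below all 3 vehicle libraries. Tlr4 fell by 0.76 on the log2 scale with control siRNA (SE 0.10, adjusted p = 2.45e-06), by 0.78 with Ctbp1 siRNA and by 0.44 with Ctbp2 siRNA (adjusted p = 0.000559). After median-of-ratios scaling these values were -0.44 (adjusted p = 0.00162), -0.49 and -0.09 (adjusted p = 0.464), so that the fall in Ctbp2 siRNA cells was no longer called.

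Ly96 was at 48.9, 41.7 and 44.9 TPM in vehicle and at 42.4, 43.5 and 45.8 TPM with LPS, and the libraries of both treatments were mixed. Its log2 fold change was -0.04 with control (95% interval -0.29 to 0.22, adjusted p = 0.795), 0.21 with Ctbp1 (adjusted p = 0.127) and 0.12 with Ctbp2 siRNA (adjusted p = 0.389). After median-of-ratios scaling it was 0.28 (adjusted p = 0.054), 0.50 (adjusted p = 0.00202) and 0.47 (adjusted p = 0.00308), and was called higher in both knockdowns. The authors' deposited table gives 0.28 (adjusted p = 0.0933), 0.52 (adjusted p = 0.00113) and 0.48 (adjusted p = 0.00225) for Ly96.

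Ratios within a library showed the same contrast. Cd14 was at 5.03 to 6.66 times Tlr4 over the 9 vehicle libraries (median 5.79) and at 50.7 to 68.4 times Tlr4 over the 9 LPS libraries (median 60.2). Ly96 over Tlr4 was 0.746 to 1.05 in vehicle (median 0.883) and 1.16 to 1.97 with LPS (median 1.49). Tlr2 over Tlr4 went from 0.540 to 0.684 in vehicle to 7.20 to 11.8 with LPS. Tlr4 was thus the more abundant of these 2 sensors in every resting library and Tlr2 in every LPS library.

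All 4 endosomal receptors were lower with LPS on the TPM scale, by very different amounts, and Tlr7 and Tlr8 were not called after median-of-ratios scaling. Tlr9 was at 12.8, 11.5 and 13.6 TPM in vehicle and at 2.69, 2.24 and 5.87 TPM with LPS in control siRNA cells. The highest of the latter was replicate 4, the library that deviated most. Without it, the log2 fold change moved from -1.65 (SE 0.20, adjusted p = 1.96e-06) to -1.98. In Ctbp1 siRNA cells Tlr9 fell by 1.57, to 3.04, 2.69 and 3.47 TPM, and in Ctbp2 siRNA cells by 1.93, to 2.33, 2.42 and 3.00 TPM. In each arm the libraries of the 2 treatments were apart.

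Tlr13 was at 227, 227 and 234 TPM in vehicle and at 83.2, 85.0 and 99.8 TPM with LPS, a fall by 1.36 on the log2 scale (SE 0.06, adjusted p = 1.08e-11). The other arms gave -1.34 and -1.39. Over the 9 libraries of each treatment Tlr13 spanned 221 to 244 TPM in vehicle and 82.7 to 99.8 TPM with LPS. In control cells 93.9% of genes tested had a larger log2 fold change than Tlr13, and 96.6% a larger one than Tlr9. Both kept their call under median-of-ratios scaling, at -1.37 for Tlr9 and -1.03 for Tlr13.

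Tlr7 and Tlr8, which are neighbours on the X chromosome, moved little, and their calls depended on the scaling, which turned the direction of Tlr7 with each siRNA and of Tlr8 in control cells. Tlr7 was at 109.7, 112 and 118 TPM in vehicle and at 91.8, 103 and 79.2 TPM with LPS. Its log2 fold change was -0.31 with control, -0.25 with Ctbp1 and -0.28 with Ctbp2 siRNA (SE 0.09; adjusted p = 0.00442, 0.0173 and 0.0098), and after median-of-ratios scaling 0.01, 0.04 and 0.08 (adjusted p = 0.922, 0.731 and 0.473). Tlr8 was at 129, 131 and 144 TPM in vehicle and at 117, 110.3 and 100.4 TPM with LPS. Its log2 fold change was -0.30, -0.33 and -0.54 on the TPM scale and 0.03, -0.04 and -0.18 after that scaling, none of the latter being called. The same scaling moved the median of all genes from -0.29 to 0.01 in control cells, and the calls from 2258 higher and 6514 lower to 4207 and 3827. Relative to that median, Tlr7 and Tlr8 were at the centre of all genes: 51.9% and 51.0% of genes tested had a larger log2 fold change. The authors' deposited table gives 0.03 for Tlr7 (adjusted p = 0.864) and 0.03 for Tlr8 (adjusted p = 0.847) in control cells.

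**Figure D2:**
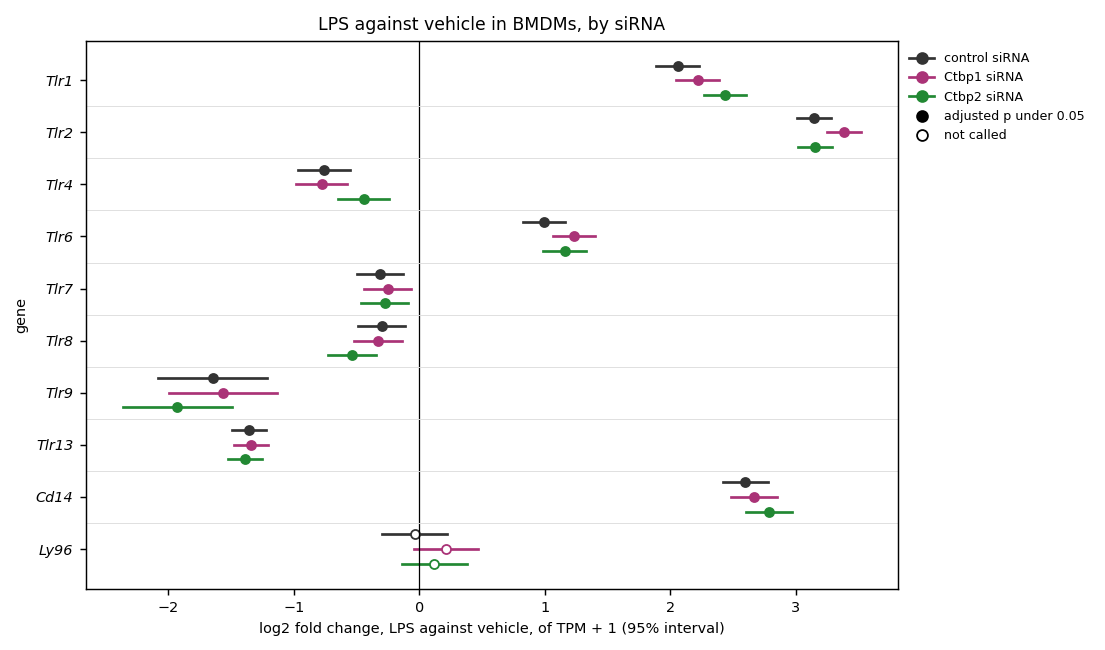
Log2 fold change of TPM + 1 with LPS against vehicle for the 10 genes (points) with 95% intervals (lines), by siRNA; filled points have an adjusted p under 0.05. Tlr2, Cd14, Tlr1 and Tlr6 lie right of 0, Tlr9 and Tlr13 far left, and Tlr7 and Tlr8 close to 0, where median-of-ratios scaling turns Tlr7 with each siRNA and Tlr8 with control siRNA to the other side.

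The make-up of the receptor transcripts was set by these changes. The surface receptors Tlr1, Tlr2, Tlr4 and Tlr6 took 17.9 to 22.5% of the summed TPM of the 8 receptors over the 9 vehicle libraries (median 21.4%) and 60.7 to 65.5% over the 9 LPS libraries (median 63.3%). The endosomal receptors Tlr7, Tlr8, Tlr9 and Tlr13 made up the rest, and Tlr3 is not part of this sum. Tlr13 was the most abundant receptor transcript in every vehicle library, with 36.0 to 39.0% of the sum, and held 10.2 to 12.9% with LPS. Tlr2 held 4.05 to 4.80% in vehicle and 31.4 to 35.5% with LPS. The sum itself was 568 to 665 TPM in vehicle (median 622) and 755 to 833 TPM with LPS (median 790). The shares do not depend on how libraries are scaled, but this sum does. Median-of-ratios factors, by which TPM are divided, were 1.10 to 1.15 in vehicle and 0.845 to 0.961 with LPS. That scaling thus makes the rise of the sum larger. Tlr7 over Tlr9 was 8.33 to 11.4 in vehicle and 13.5 to 48.3 with LPS, where the lowest value belonged to control siRNA replicate 4.

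**Figure D3:**
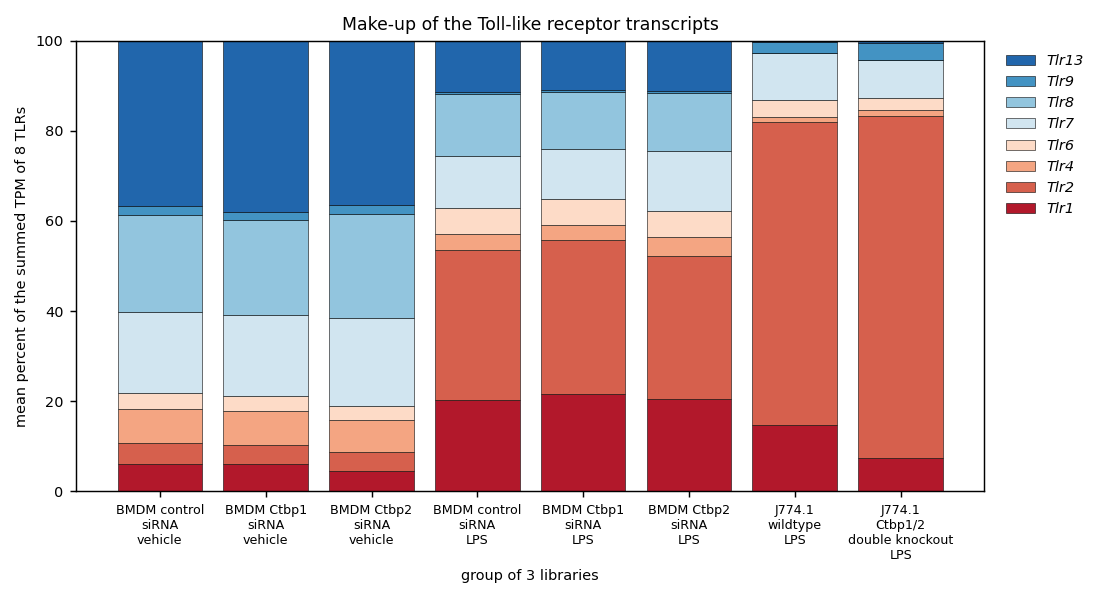
Mean percent of the summed TPM of 8 Toll-like receptors held by each, for the 8 groups of 3 libraries; reds are surface and blues endosomal receptors. Endosomal receptors fill most of the bar in vehicle BMDMs, surface receptors most of it in LPS BMDMs and in both J774.1 groups, where Tlr2 holds 67.2% in wildtype and 75.7% in double-knockout cells.

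Ctbp1 siRNA called none of the 10 genes. In vehicle, 0.107% of all genes tested were called (13 genes by limma, and 8.92% at an unadjusted p under 0.05), and with LPS 0.0576% (7 genes, and 7.34% at an unadjusted p under 0.05). The authors' deposited table has none of the 10 at an adjusted p under 0.05 in either. Tlr2 in vehicle was at 23.0, 24.7 and 28.5 TPM, against 27.6, 28.4 and 31.1 with control siRNA, and the libraries overlapped (log2 -0.19, 95% interval -0.32 to -0.05, adjusted p = 0.339). Ly96 was at 33.0, 34.1 and 42.6 against 48.9, 41.7 and 44.9 TPM, also with overlap (log2 -0.30, 95% interval -0.56 to -0.05, adjusted p = 0.471). With LPS, Ctbp1 siRNA log2 fold changes of the 10 genes lay between -0.13 (Tlr8) and 0.10 (Tlr1).

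Ctbp2 siRNA called 1 of the 10 genes in vehicle, where 0.568% of all genes tested were called (0.296% lower). These were 69 genes, against 22 with only the libraries compared and 4 without control siRNA vehicle replicate 3. Tlr1 was at 28.4, 29.3 and 29.1 TPM with Ctbp2 and at 37.5, 35.7 and 40.1 TPM with control siRNA. All 3 knockdown libraries were below all 3 controls, and Tlr1 fell by 0.37 on the log2 scale (SE 0.08, adjusted p = 0.0455). The authors' deposited table gives -0.34 for Tlr1 (adjusted p = 0.0304). The size held in every alternative (log2 -0.41 to -0.33), but the adjusted p was above 0.05 in 10 of 14, among them leaving out any of the 6 libraries compared (0.0920 to 0.181). Tlr6, which shares part of its sequence with Tlr1, was at 20.2, 19.0 and 19.3 against 20.8, 24.1 and 22.0 TPM (log2 -0.18, 95% interval -0.35 to -0.01, adjusted p = 0.387).

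With LPS, Ctbp2 siRNA called none of the 10 genes, and 1.94% of all genes tested (236 by limma, and 17.5% at an unadjusted p under 0.05). That number was 4 with only the libraries compared, 66 without Ctbp2 siRNA LPS replicate 3, 92 without its replicate 1 and 145 without control siRNA LPS replicate 4. Tlr1 was then at 161, 153 and 170.1 TPM against 168, 159 and 154 TPM with control siRNA (log2 0.01, 95% interval -0.16 to 0.18). Tlr4 was at 30.6, 34.0 and 35.0 TPM against 28.4, 32.5 and 23.2 TPM (log2 0.25, 95% interval 0.04 to 0.45, adjusted p = 0.195). The lowest of these controls was again replicate 4, and without it the difference was 0.12. The authors' deposited table gives 0.31 for Tlr4, with an adjusted p of 0.0459. Tlr7 was at 97.5, 117 and 99.6 TPM against 91.8, 103 and 79.2 TPM (log2 0.20, 95% interval 0.01 to 0.38, adjusted p = 0.259), with overlap, and at 0.10 without replicate 4. The lowest value was that of Tlr9 (log2 -0.28, and 0.05 without replicate 4). Both siRNAs were compared with the same control libraries, so their values are not independent of each other.

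Whether an siRNA changed the response to LPS was tested as an interaction. None of the 10 genes was called for either siRNA. For Ctbp1 siRNA, limma called 0 of 12146 genes (762 at an unadjusted p under 0.05), and for Ctbp2 siRNA it called 4, or 0.0329% (919 at an unadjusted p under 0.05). The response of Tlr1 was larger by 0.38 on the log2 scale with Ctbp2 siRNA (95% interval 0.14 to 0.62, adjusted p = 0.332). That of Tlr4 differed by 0.32 (95% interval 0.03 to 0.60, adjusted p = 0.596), and that of Tlr2 with Ctbp1 siRNA by 0.24 (95% interval 0.05 to 0.43, adjusted p = 0.656). For Cd14 the intervals were -0.19 to 0.33 with Ctbp1 and -0.07 to 0.45 with Ctbp2 siRNA, and for Tlr13 -0.18 to 0.20 and -0.22 to 0.16.

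**Figure D4:**
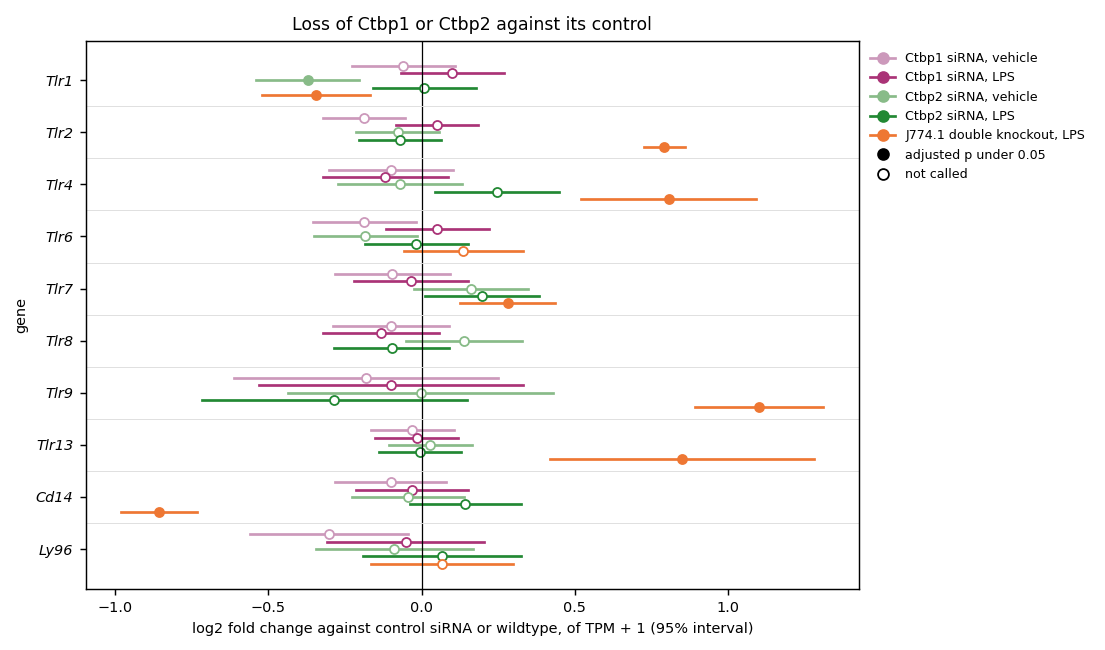
Log2 fold change of TPM + 1 (points) with 95% intervals (lines) for Ctbp1 or Ctbp2 siRNA against control siRNA in BMDMs and for the double knockout against wildtype in J774.1 cells; filled points have an adjusted p under 0.05. In BMDMs Tlr1 with Ctbp2 siRNA in vehicle is the 1 filled point, at -0.37. In the double knockout Tlr2, Tlr4, Tlr7 and Tlr9 are filled right of 0, Tlr1 and Cd14 are filled left of 0, and Tlr6 and Ly96 are open right of 0. Tlr13 is also drawn filled right of 0, but it had to differ to be tested, so its point is a description only.

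LPS-treated J774.1 cells had a narrower set of receptors. Wildtype cells had Cd14 at 1701, 1658 and 1694 TPM and Tlr2 at 141, 143 and 147 TPM, then Tlr1 (mean 31.6), Tlr7 (22.3), Ly96 (13.9), Tlr6 (8.06), Tlr9 (5.45) and Tlr4 (2.26), and no neighbours in this order overlapped. Tlr13 was at 0.782, 0.345 and 0.205 TPM, and Tlr8 was listed at 0 in 2 wildtype libraries and at 0.0208 TPM in the other. In LPS-treated control BMDMs, Tlr13 averaged 89.3 and Tlr8 109 TPM. The tables were normalized separately, and line, strain, sex and any difference in siRNA transfection cannot be told apart between them, so no test was made. Cd14 was at 749 times Tlr4 in wildtype J774.1 cells (mean of 3 ratios, SD 73.1) and at 60.3 times (SD 4.13) in LPS-treated control BMDMs.

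In the double knockout, 6 of the 8 tested genes other than Tlr13 changed, 4 upward and 2 downward, where 36.1% of the 11818 genes tested were called (23.0% higher and 13.2% lower). Tlr2 was at 251, 251 and 247 TPM in double-knockout and at 141, 143 and 147 TPM in wildtype cells. It was 1.74-fold higher (log2 0.79, SE 0.03, adjusted p = 8.87e-07), with a wide gap between the groups. Tlr9 was at 12.3, 13.9 and 12.3 against 4.98, 6.07 and 5.31 TPM, 2.35-fold higher (log2 1.10, SE 0.09, adjusted p = 6.27e-05). Tlr4 was at 4.19, 5.52 and 4.46 against 2.07, 2.21 and 2.51 TPM, 2.09-fold higher (log2 0.81, SE 0.12, adjusted p = 0.00172). Tlr7 rose least, from 24.2, 20.4 and 22.4 to 27.7, 27.6 and 26.6 TPM (log2 0.28, SE 0.07, adjusted p = 0.0133). For all of these the libraries of both genotypes were apart.

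Cd14 went the other way. It was at 866, 1013 and 915 TPM in double-knockout and at 1701, 1658 and 1694 TPM in wildtype cells, so that it fell by 0.86 on the log2 scale (SE 0.05, adjusted p = 1.49e-05). Tlr1 was at 24.2, 22.7 and 27.2 against 31.3, 33.6 and 29.98 TPM and fell by 0.35 (SE 0.08, adjusted p = 0.00958). Both genes were lower in every double-knockout library than in any wildtype library. Tlr6 (8.18, 9.77 and 8.98 against 8.40, 8.18 and 7.61 TPM, adjusted p = 0.245) and Ly96 (13.0, 14.9 and 15.8 against 13.7, 12.4 and 15.6 TPM, adjusted p = 0.644) were not called, with 95% intervals of -0.06 to 0.33 and -0.17 to 0.30 on the log2 scale. The authors' deposited table gives 0.30 for Tlr6 (adjusted p = 0.0512).

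Tlr13 passed the minimum level through the double-knockout libraries, at 1.63, 1.41 and 1.66 TPM, and had to differ to be tested. Its values are given as a description: the wildtype libraries, at 0.782, 0.345 and 0.205 TPM, were all lower. Tlr8 was listed at 0 in all 3 double-knockout libraries.

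Within libraries, Cd14 over Tlr2 averaged 11.7 (SD 0.305) in wildtype and 3.73 (SD 0.290) in double-knockout cells, and Cd14 over Tlr4 averaged 749 and 199. Tlr2 over Tlr1 averaged 4.56 and 10.2. The surface receptors held 86.8% (SD 0.799) and 87.4% (SD 0.275) of the summed receptor TPM, so the share of both receptor kinds differed by less than the spread of the wildtype libraries, while the share of Tlr1 went from 14.8 to 7.49%. The sum was 214 TPM in wildtype and 329.9 TPM in double-knockout cells. Under median-of-ratios scaling the same 4 genes were higher and the same 2 lower. With that scaling the calls over all genes went from 2713 higher and 1555 lower to 2143 and 2294. Beside these changes, the macrophage marker Adgre1 was at 225 TPM in wildtype and 15.8 in double-knockout cells, and Csf3r at 0.550 and 3.72. Of the 6 macrophage markers tested, 5 were higher and 1 lower with either scaling, where on the TPM scale 23.0% of all genes tested were higher and 13.2% lower. The part of cell state in the receptor changes was not tested.

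**Figure D5:**
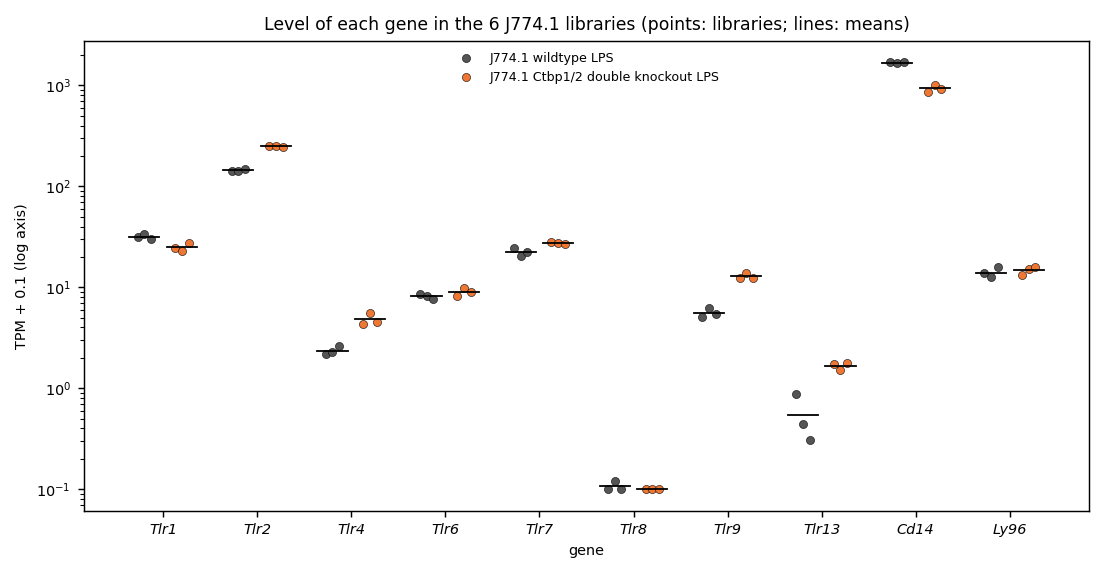
TPM + 0.1 on a log axis of the 10 genes in the 6 J774.1 libraries, all LPS-treated; points are libraries and lines are means of 3. Cd14 and Tlr1 lie lower in the double knockout (orange) than in wildtype (grey), Tlr2, Tlr4, Tlr7, Tlr9 and Tlr13 lie higher, and Tlr8 is at the bottom in both.

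The other receptors of the family were low in BMDMs. Tlr3, the endosomal receptor for double-stranded RNA, averaged 11.9 TPM in vehicle and 11.2 TPM with LPS in control cells and was not called, while the remaining family members Tlr5, Tlr11 and Tlr12 were at or near 0. In Ctbp2 siRNA cells Tlr3 was called lower with LPS, from 11.9 to 8.27 TPM (log2 -0.48, adjusted p = 0.00208), and after median-of-ratios scaling, at -0.15, it was not called. In Ctbp1 siRNA cells that scaling called Tlr3 higher (log2 0.32, adjusted p = 0.0355), where the TPM scale gave 0.05. In J774.1 cells Tlr3 was at 13.9, 13.4 and 11.2 TPM in double-knockout and at 3.38, 3.47 and 4.10 TPM in wildtype cells, a log2 fold change of 1.57 (SE 0.11, adjusted p = 2.08e-05).

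Of 14 adaptors and proximal kinases, all tested, 11 were higher and 3 lower with LPS in control cells, where 18.6% of all genes tested were higher and 53.6% lower. Their median log2 fold change was 0.35, against -0.29 over all genes. With median-of-ratios scaling the counts were 11 higher and 2 lower, beside 4207 higher and 3827 lower of all 12117 genes tested. Irak2, a kinase of the Myd88 complex, rose from 42.0 to 233 TPM (log2 2.44), and Ikbke, a kinase upstream of interferon regulatory factors, from 81.5 to 391 TPM (log2 2.25). Myd88 itself went from 67.2 to 141 TPM (log2 1.06), and Ticam2, the bridging adaptor between Tlr4 and Ticam1, rose by 1.20. Tab1, a partner of the kinase Map3k7, fell from 14.4 to 5.55 TPM (log2 -1.27), while Tab2, another such partner, rose by 1.17. Counts were 11 higher and 3 lower in both knockdowns as well. In the double knockout 7 of the 14 were higher and 0 lower (5 and 0 after that scaling), where 23.0% of all genes tested were higher and 13.2% lower, with Myd88 at 136 against 106 TPM. Ctbp2 siRNA called 1 of them, Irak4, another kinase of the Myd88 complex, lower with LPS (log2 -0.29, adjusted p = 0.0376). Of all genes tested there, 1.94% were called and 1.42% were lower. After that scaling Irak4 was not called (log2 -0.22, adjusted p = 0.107).

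Of 16 accessory genes and chaperones linked to the receptors, not all of which act on the receptors themselves, 15 were tested. With LPS in control cells 1 was higher and 13 lower on the TPM scale, where 53.6% of all genes tested were lower (median log2 -0.44 against -0.29 over all genes). After median-of-ratios scaling the split was 4 higher and 7 lower, with the chaperones Unc93b1 and Hsp90b1 turning from lower to higher. Slc15a3, a transporter of endolysosomes, rose from 282 to 614 TPM (log2 1.12). Cnpy3, a chaperone of Toll-like receptors, fell from 61.3 to 28.0 TPM (log2 -1.11). Cd180 and Ly86, which form a receptor complex related to that of Tlr4 and Ly96, went from 334 to 204 TPM (log2 -0.71) and from 127 to 77.5 TPM (log2 -0.70). With Ctbp2 siRNA the endolysosomal protease Ctss was called higher in vehicle (log2 0.26, adjusted p = 0.0332) and with LPS (log2 0.27, adjusted p = 0.0142). No other gene of this list was called there, where 0.568% of all genes tested were called in vehicle and 1.94% with LPS. As given above, these shares rest on calls that were far fewer with only the libraries compared, a setting in which Ctss was not followed. In the double knockout 8 of 15 were higher and 4 lower (6 and 4 after that scaling), beside 23.0% and 13.2% of all genes tested, with Ly86 at 172 against 139 TPM.

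Of 10 genes that regulate receptor signalling, up or down, or move receptors within the cell, 9 were tested, and 3 were higher and 4 lower with LPS in control cells (5 and 3 after median-of-ratios scaling). Their median log2 fold change was -0.11, against -0.29 over all genes, of which 18.6% were higher and 53.6% lower. Peli1, a ubiquitin ligase of this pathway, rose from 18.7 to 166 TPM (log2 3.07), and Irak3, an inhibitory kinase relative, from 14.1 to 79.2 TPM (log2 2.41). Rab10, a small GTPase that brings Tlr4 to the cell surface, rose from 106 to 254 TPM (log2 1.25). Rab7b, which directs Tlr4 and Tlr9 to lysosomes, fell from 301 to 40.2 TPM (log2 -2.90). In the double knockout Rab7b was at 11.9 against 4.54 TPM (log2 1.20), Sigirr rose by 0.87 and Tollip fell by 0.40, with 4 of 9 higher and 1 lower in all (3 and 1 after that scaling), where 23.0% of all genes tested were higher and 13.2% lower.

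The genes whose log2 levels were most like those of 4 of the receptors were found by Pearson correlation over the 18 BMDM libraries. These share the LPS contrast, so high values are common. For Tlr2 they were Cd83, Pde4b and Irf1 (each 0.999), and for Cd14 Pgs1, Cxcl2 and Ccl4 (each 0.999). Cd83 went from 26.8 to 174 TPM with LPS in control cells and Irf1 from 57.8 to 531 TPM, beside 29.0 to 264 TPM for Tlr2. For Tlr9 they were Rnpep, Gpr162 and Lpin2 (each 0.991), of which Gpr162 went from 23.1 to 7.54 TPM. For Tlr4 the highest correlations were lower, with Irs2 at 0.953, 1500011B03Rik at 0.949 and St8sia4 at 0.945. St8sia4 went from 47.0 to 17.3 TPM, a larger fall than that of Tlr4 from 47.8 to 28.0 TPM.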

How the data were processed

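The deposited tables hold TPM for each library, made by the authors with Salmon; per the file headers the BMDM values are gene-level scaled TPM on mm39, while the J774.1 header names no tool or build. Per the submitters' processing notes, FastQC, Salmon 1.9.0, DESeq2 1.44.0 and R 4.4.1 were used. The same deposited tables give log2 fold changes with p-values, raw and adjusted, which are named as the authors' where quoted. The authors' normalized counts per gene, deposited as 1 mean signal over samples, were not used further. The TPM sum to 999503 to 999944 per library and keep no depth, so the read depth and counting error of each library are unknown.

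Log2(TPM + 1) was fitted with limma 3.58.1 in R 4.3.3 (eBayes with trend and robust estimation) over genes averaging 1 TPM or more, the 18 BMDM libraries together and the 6 J774.1 libraries alone. Benjamini-Hochberg adjustment ran over all genes of a comparison (12146 and 11818), and a gene was called at an adjusted p under 0.05. The fit was also run on simulated data with independent noise and few changed genes. Those data hold no replicate effect and no shift of most genes, so that run cannot show how reliable the calls given here are. Fold changes in the text are ratios of mean TPM, and log2 fold changes are on the log2(TPM + 1) scale, which understates changes of low genes. The labels speak of triplicates but do not tie them to separate mice or cultures, so p-values measure the spread between these libraries only.

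All 10 genes, Ctbp1 and Ctbp2 are named throughout. From each pathway list at most 6 called genes per comparison were eligible, largest change first, besides genes near 0. Unc93b1, Hsp90b1, uncalled values of Tlr3 and the cell type markers are named beyond that, chosen after their values were seen. The genes and lists were chosen with earlier results of these data known. Alternatives were another pseudocount (0.1), a minimum of 10 TPM, no minimum, median-of-ratios scaling, a replicate block, plain eBayes, only the libraries compared, and leaving out each library. Promoter windows and transcript words came from RefSeq (GRCm38.p6) and GENCODE vM21.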

Additional observations from a re-analysis of the deposited data

How the results depend on the processing

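Of 99 values for single genes (10 genes in 9 BMDM comparisons and 9 genes in J774.1 cells), 89 kept their side of the threshold, and the called ones their direction, under every alternative run; values not called either way crossed 0 in 61 of 1421 refits. Median-of-ratios scaling reversed Tlr7 with LPS in control (log2 0.012), Ctbp1 (0.042) and Ctbp2 siRNA cells (0.083) and Tlr8 in control cells (0.026). In Ctbp1 siRNA cells, Tlr7 lost its call without LPS replicate 1 (-0.23, adjusted p = 0.0531) or replicate 4 (-0.19, adjusted p = 0.085), and Ly96 gained one without LPS replicate 3 (0.34, adjusted p = 0.0175) or vehicle replicate 4 (0.32, adjusted p = 0.0309); the cause was not tested. The single call with Ctbp2 siRNA in vehicle, Tlr1, became 0 calls with no minimum level, with plain eBayes, after median-of-ratios scaling and with only the libraries compared, and 0 to 1 when a library was left out; the smaller number of libraries is part of the last 2 settings. In the double knockout 7 of 9 genes were called, among them Tlr13, which had to differ to be tested (6 of the 8 others), and 4 with a minimum of 10 TPM, which leaves out Tlr4, Tlr6, Tlr9 and Tlr13, and 6 to 7 when a library was left out; Tlr13 could not be tested under median-of-ratios scaling, with that minimum or without any double-knockout library.

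Same-numbered BMDM libraries shared a small part of their deviations, which correlated at -0.06 to 0.15 (median 0.055, 6 of 45 pairs over 0.1). Differently numbered BMDM pairs had a median of -0.02. Of the libraries, 18 of 18 BMDM and 4 of 6 J774.1 had their highest mean correlation with their own number. The main fit holds no term for the replicate number. With a replicate block 9, 9 and 9 of the 10 genes were called with LPS, 1 with Ctbp2 siRNA in vehicle and 7 in the double knockout with Tlr13 among them, each as without it, while all genes called went from 69 to 155 with Ctbp2 siRNA in vehicle and from 236 to 414 with LPS. With only the libraries compared they went to 22 and 4, and leaving out 1 library compared gave 4 (without control vehicle replicate 3) to 54 and 66 (without Ctbp2 LPS replicate 3) to 295. Without control siRNA LPS replicate 4 these went to 105 and 145, and with Ctbp1 siRNA from 13 to 38 in vehicle and from 7 to 83 with LPS, with no change in the number of the 10 genes called. The unknown depth limits what can be said of genes near 0, here Tlr8 and Tlr13 in J774.1 cells.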
